A study of Mus musculus with 2 samples.

Results

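The genes described here are the 6 mouse genes of the Mir99, Mir100 and Mir125 families, Mir99a, Mir99b, Mir100, Mir125a, Mir125b-1 and Mir125b-2. They were chosen by gene symbol, and all 6 are among the 1973 annotated miRNA genes counted. The samples were entire bladders taken on postnatal day 0 from B6NCrl mice, with 1 bladder from each of 2 pups of litter 1. Sex was not recorded for either animal. The labels give no treatment and place both pups in 1 group, so no condition was compared. They are called pup 2 and pup 1 after their labelled numbers. A level is given as sense-strand counts per 1000000 sense-strand gene counts (CPM), and an error is the SD over the 2 pups, which does not cover differences between litters.

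MicroRNAs are short RNAs that pair with messenger RNAs, mainly through the seed (bases 2 to 8 from the 5′ end), and lower their translation and stability. In mammals the Mir99 and Mir100 genes and the Mir125 genes are linked: a gene of the first kind, a let-7 gene and a Mir125 gene lie in that order in each of 3 clusters. The miR-125 family is the vertebrate counterpart of lin-4 of Caenorhabditis elegans, which with let-7 times larval development, and miR-99 and miR-100 have been described as repressing components of the mTOR and insulin-like growth factor pathways. In human bladder cancer cells, miR-99a and miR-100 have been described as repressing the growth factor receptor FGFR3.

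The mature 5p sequences are shown because they define the families and set which reads can be told apart. They are RefSeq entries on GRCm38.p6, where all 6 genes had mature entries, and the seed is in capitals. The Mir99 and Mir100 products share the seed ACCCGUA.
miR-99a-5p: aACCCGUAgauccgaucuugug
miR-100-5p: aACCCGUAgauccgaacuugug
miR-99b-5p: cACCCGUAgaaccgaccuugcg
The Mir125 products share the seed CCCUGAG, and so does miR-351-5p of the X-linked gene Mir351.
miR-125a-5p: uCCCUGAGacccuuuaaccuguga
miR-125b-5p: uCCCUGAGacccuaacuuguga
miR-351-5p: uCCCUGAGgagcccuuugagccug

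With positions counted from 1 at the 5′ end, miR-99a-5p and miR-100-5p differed by the single substitution U16A. The longest run they shared was 15 bases. Against miR-99a-5p, miR-99b-5p carried 4 substitutions, A1C, U11A, U16C and U21C, and none of them lies in the seed. The 24-base miR-125a-5p and the 22-base miR-125b-5p shared a first run of 13 bases and were 3 single-base edits apart. The 22 bases of miR-125b-5p are the same for Mir125b-1 and Mir125b-2. Each piece of 18 or more bases from it therefore occurs in both genes, whereas no piece of 18 or more bases of the other 4 members' 5p sequences was found in another gene's entry among the 1738 RefSeq mature entries searched.

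The 3p sequences of the Mir125b genes are shown because they are the arms by which these genes differ. Their longest shared run was 8 bases.
miR-125b-1-3p: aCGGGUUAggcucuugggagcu
miR-125b-2-3p: aCAAGUCAgguucuugggaccu
Reads that mapped to several places were 24.8% of all reads in pup 2 and 22.7% in pup 1, and they were assigned to no gene. A read lying wholly within miR-125b-5p fits both Mir125b genes, so it was counted for neither. The levels and ranks of Mir125b-1 and Mir125b-2 therefore leave out such reads, whose number is not known. The tables give 1 count per gene and strand, so 5p and 3p arms were not counted apart.

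By counts assigned to a gene, Mir99a was the most abundant of the 6 genes and ranked 2 of all 1973. Reads mapped to several places, 24.8% of all reads in pup 2 and 22.7% in pup 1, enter no gene's level or rank. Genes whose mature sequence has identical copies can therefore rank too low. It had 44327 CPM in pup 2 and 37088 in pup 1, with a mean of 40707 ± 5119 CPM (SD, n = 2), from 161203 counts in pup 2 and 276697 in pup 1. Only Mir143, a smooth muscle miRNA gene, ranked above it, at 13.0 ± 1.69 times its level. Mir99b had 6426 CPM in pup 2 and 6883 in pup 1 (mean 6654 ± 323, SD, n = 2) and ranked 19. Mir100 had 2668 CPM in pup 2 and 2402 in pup 1 (mean 2535 ± 188, SD, n = 2) and ranked 36. The values of these 3 genes lay far apart in both pups, although their products share a seed. Mir99a stood at 6.90 times Mir99b in pup 2 and at 5.39 times in pup 1. It stood at 16.6 times Mir100 in pup 2 and at 15.4 times in pup 1.

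The Mir125 genes were lower as counted, with reads lying wholly within miR-125b-5p left out. Mir125a had 1652 CPM in pup 2 and 1777 in pup 1 (mean 1714 ± 88.7, SD, n = 2) and ranked 50. Mir125b-2 had 467 CPM in pup 2 and 414 in pup 1 (mean 441 ± 37.1, SD, n = 2) and ranked 97. Mir125b-1, the lowest of the 6, had 244 CPM in pup 2, with an exact 95% interval of 228 to 260 CPM, and 221 CPM in pup 1, with an interval of 211 to 232 CPM. Its mean was 233 ± 16.0 CPM and its rank 122. Such intervals cover only the counting error of reads within 1 library. The reads carry no molecular identifiers, so the counting error of molecules is not covered. The order of the 6 genes was the same in both pups, and no neighbours in that order overlapped between the pups. Mir100 and Mir125a were the closest neighbours, at a ratio of 1.62 in pup 2 and 1.35 in pup 1. Counts of mature miRNAs were not divided by gene length, but the order was also the same per kilobase of annotated gene, a scale on which all 6 genes kept their place.

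**Figure D1:**
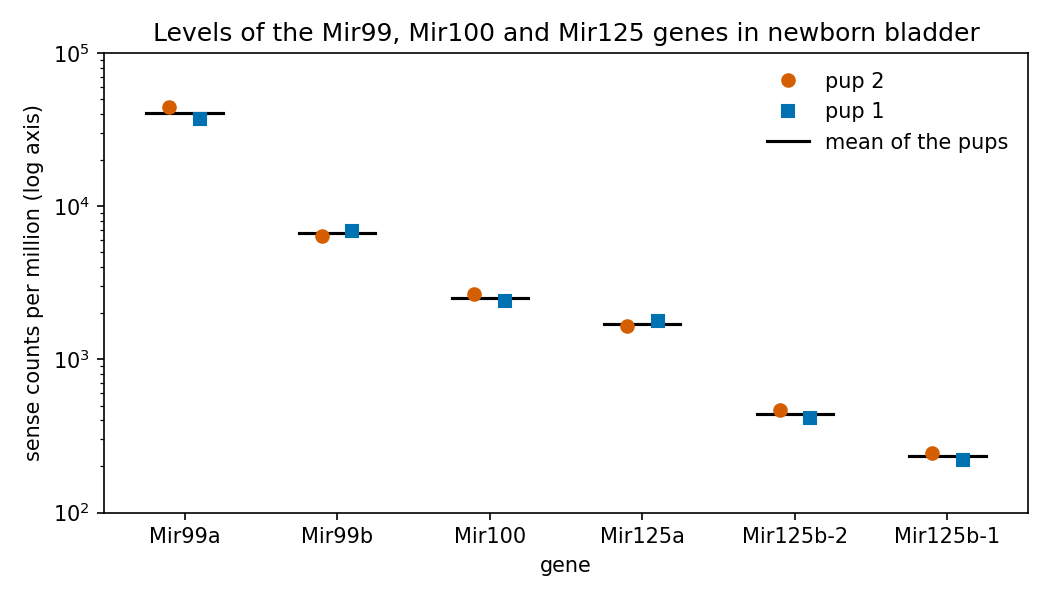
Level of each gene in sense counts per 1000000 (log axis), with pup 2 as circles, pup 1 as squares and the mean as a bar. Mir99a at a mean of 40707 CPM lies well above the other genes, and Mir125b-1 at 233 CPM is the lowest as counted.

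**Figure D2:**
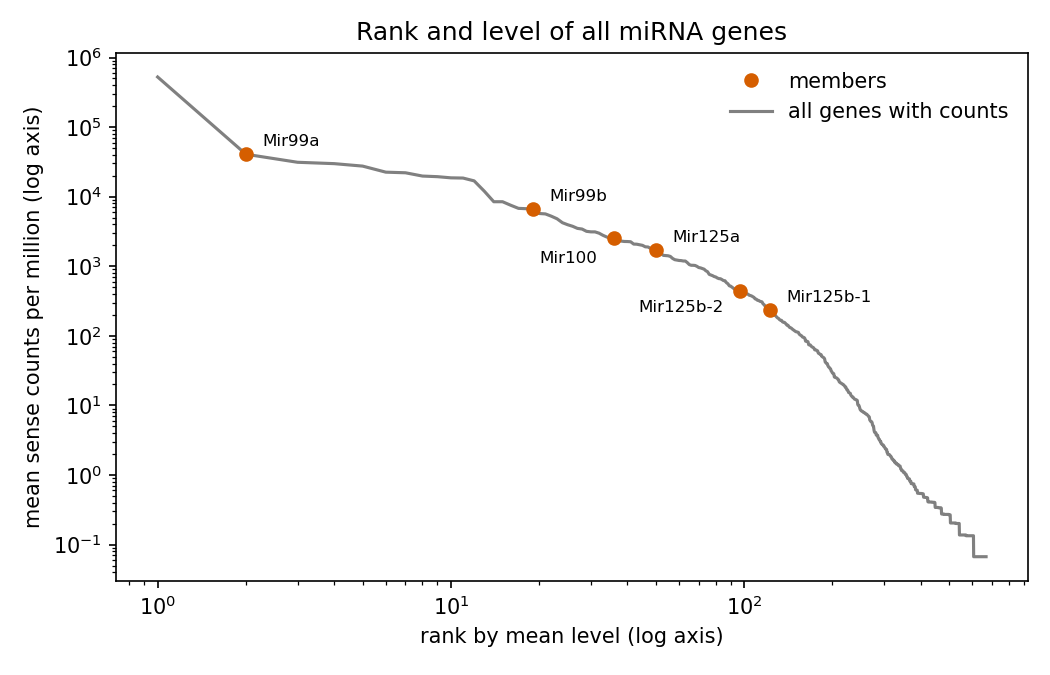
Mean level in counts per 1000000 against rank for all miRNA genes with counts (line; both axes log), with the 6 members as points. By counts assigned to a gene, the members run from rank 2 for Mir99a to rank 122 for Mir125b-1.

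All 6 members were detected, which required 1 CPM and 3 counts in both libraries, against 17.0% of all 1973 genes. The median of the members' mean levels was 2125 CPM, against 74.0 CPM over the 335 detected genes. The 6 genes summed to 5.58% of sense-strand gene counts in pup 2 and 4.88% in pup 1 (mean 5.23% ± 0.495, SD, n = 2). Mir99a alone made up 79.5% of that sum in pup 2 and 76.0% in pup 1. The Mir99 and Mir100 genes together held 95.8% of it in pup 2 and 95.1% in pup 1, and the Mir125 genes held 4.23% in pup 2 and 4.95% in pup 1. Counts at the Mir99 and Mir100 genes were 22.6 times those at the Mir125 genes in pup 2 and 19.2 times in pup 1. These multiples are upper values wherever reads of miR-125b-5p were left unassigned. They do not compare the seeds, because Mir351 shares the Mir125 seed and is not included. As counted, its mean of 5240 CPM exceeded the 2388 CPM of the Mir125 genes together. That sum leaves out reads lying wholly within miR-125b-5p, so it can be too low.

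The tissue label was checked against miRNA markers. The smooth muscle genes Mir143 and Mir145a held 53.7% of counts, 5 genes of the epithelial miR-200 family 0.988% and the endothelial gene Mir126a 1.98%. Blood cell genes, of which 4 were measured, summed to 2229 CPM in pup 2 and 1071 in pup 1. The hepatocyte gene Mir122 was at 31.6 CPM in pup 2 and 112 in pup 1. The 5 measured neuronal genes had no count and the 4 genes of striated muscle summed to 7.70 CPM in pup 2 and 12.1 in pup 1, but these have near-identical copies. No part of these lists in the members' levels was tested, and in whole tissue more cells of a type and more RNA per cell cannot be told apart.

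As counted, the 3 clusters differed in level and in the ratio between their members. Reads lying wholly within miR-125b-5p are left out of both Mir125b genes, so the ratios of Mir99a and Mir100 to them can be too high. The part of these reads in the differences between clusters was not tested. On chromosome 16, Mir99a (ENSMUSG00000065530.1, chr16:77598936-77599000, plus strand of GRCm38) and Mir125b-2 (ENSMUSG00000065472.1, chr16:77646273-77646343) start 47.3 kb apart, both in introns of the non-coding gene Mir99ahg. Mir125b-2 also overlaps 4 bases of C130023A14Rik. Mir99a counts were 94.9 times those of Mir125b-2 in pup 2 and 89.5 times in pup 1 (mean 92.2 ± 3.85, SD, n = 2). This pair held 80.3% of the members' counts in pup 2 and 76.9% in pup 1.

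On chromosome 9, Mir100 (ENSMUSG00000093011.1, chr9:41531425-41531504, plus strand) and Mir125b-1 (ENSMUSG00000093354.1, chr9:41581926-41582002) start 50.5 kb apart, in introns of the non-coding genes 3110039I08Rik and Gm49317. Mir125b-1 lies in an exon of Gm28119, an annotated sense-intronic transcript, and Mir100 opposite an exon of Gm48742. Mir100 counts were 10.9 times those of Mir125b-1 in both pups (mean 10.9 ± 0.0606, SD, n = 2). This ratio can be too high, because reads lying wholly within miR-125b-5p are left out of Mir125b-1. This pair held 5.22% of the members' counts in pup 2 and 5.38% in pup 1.

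On chromosome 17 the cluster is compact. Mir99b (ENSMUSG00000065396.1, chr17:17830188-17830257, plus strand) lies in an intron of Spaca6, a protein-coding gene. Mir125a (ENSMUSG00000065479.1, chr17:17830812-17830879) starts 624 bases downstream of the start of Mir99b and overlaps an annotated exon of Spaca6. Mir99b counts were 3.89 times those of Mir125a in pup 2 and 3.87 times in pup 1 (mean 3.88 ± 0.0126, SD, n = 2). Neither 5p sequence of this pair has an identical entry under another gene, whereas each of the other clusters includes a Mir125b gene that does. The pair held 14.5% of the members' counts in pup 2 and 17.8% in pup 1.

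Each cluster also holds a let-7 gene, from the family that represses growth and stem cell genes such as Lin28. Mirlet7c-1, 721 bases downstream of the start of Mir99a, had 97.6 CPM in pup 2 and 114 in pup 1, and Mir99a counts were 454 times as many in pup 2 and 324 times in pup 1. Mirlet7a-2, 5.29 kb downstream of the start of Mir100, had 76.2 CPM in pup 2 and 91.0 in pup 1. The mature let-7c-5p has an identical second RefSeq entry and let-7a is likewise made by several genes, so both levels can be too low. Mirlet7e, between Mir99b and Mir125a, had no entry under its GENCODE M21 ID among the 1973 genes counted. It could therefore not be analysed as a gene of its own. GENCODE M21 places it opposite Gm25927, where the opposite-strand counts were 7470 in pup 2 and 15848 in pup 1, while Gm25927 itself had no sense count in either pup. As a level these are 2054 CPM in pup 2 and 2124 in pup 1 (mean 2089 ± 49.6, SD, n = 2). Read this way, the levels in the chromosome 17 cluster lay within a 3.88-fold range, with Mir99b at 3.13 times the let-7e locus in pup 2 and 3.24 times in pup 1, and the let-7e locus at 1.24 times Mir125a in pup 2 and 1.20 times in pup 1. The mature let-7e-5p is shown with its seed in capitals because its counts stand only under another gene's name.
let-7e-5p: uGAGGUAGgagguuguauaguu

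**Figure D3:**
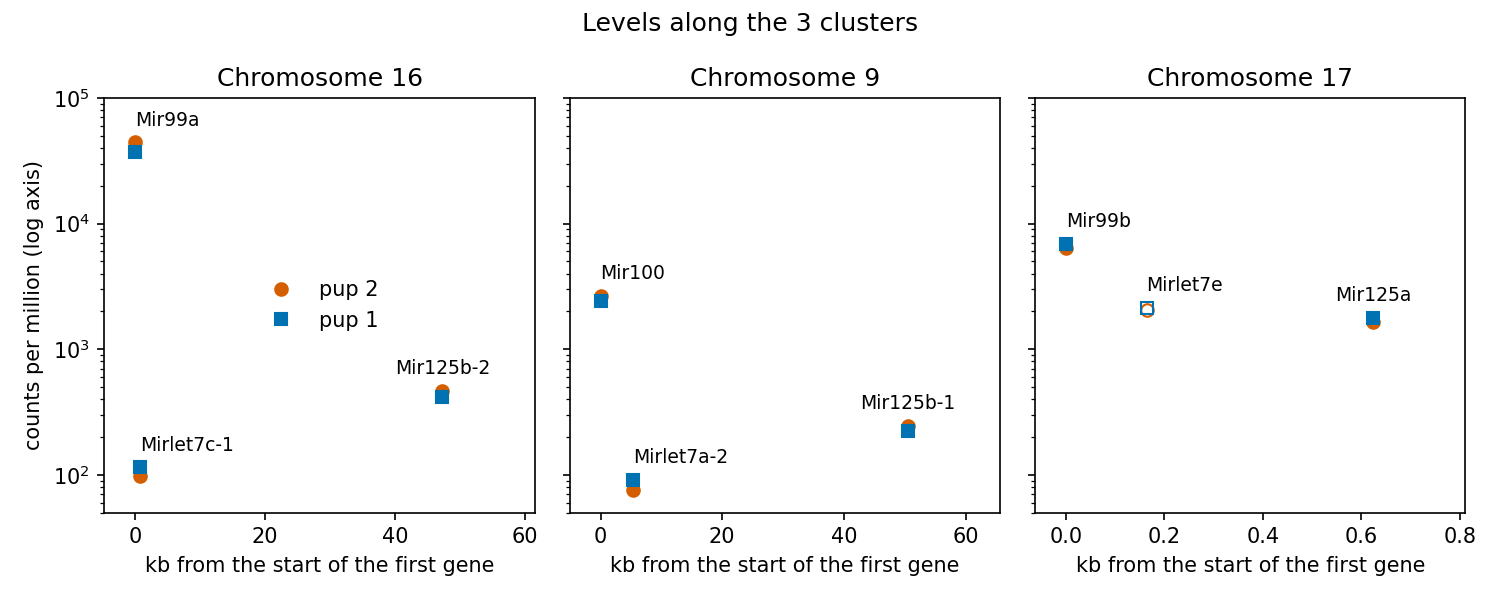
Level in counts per 1000000 (log axis) against the distance in kb from the start of the first gene of each cluster, with pup 2 as circles and pup 1 as squares. Open symbols for Mirlet7e are counts opposite Gm25927. On chromosome 17 the members Mir99b and Mir125a, which bound the plotted levels, lie 3.88-fold apart. On chromosome 16 the members Mir99a and Mir125b-2 lie 92.2-fold apart, with reads shared with Mir125b-1 left out of Mir125b-2. Mirlet7c-1 lies lower still, with Mir99a at 389 times its counts (mean of the pups), and its level can also be too low.

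None of the 6 members had a count on the strand opposite to the gene in either pup. For Mir99a this allows an opposite-strand share of up to 0.00186% in pup 2 and 0.00108% in pup 1, and for Mir125b-1, the least deeply counted, up to 0.338% in pup 2 and 0.182% in pup 1.

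Outside the members, 3 genes carry the seed CCCUGAG in a RefSeq mature entry and none carries ACCCGUA. Mir351, a gene of the X-linked cluster with Mir322 and Mir503, had 4697 CPM in pup 2 and 5783 in pup 1 (mean 5240 ± 768, SD, n = 2) and ranked 22. Its counts were 2.84 times those of Mir125a in pup 2 and 3.25 times in pup 1, so among the genes with this seed, as counted, it was the highest. Mir6367 and Mir6394 had no count in either pup, which allows up to 0.825 CPM in pup 2 and 0.402 in pup 1. Mir10a and Mir10b, the Hox-cluster miRNA genes, are the relatives of Mir99 and Mir100 in sequence. Their products are shown because their bases past the seed resemble those of miR-100 and miR-99b.
miR-10a-5p: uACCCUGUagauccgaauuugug
miR-10b-5p: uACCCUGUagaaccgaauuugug
The miR-10a-5p sequence was 3 single-base edits from miR-100-5p, with a shared run of 11 bases, but its seed is ACCCUGU. Mir10b stood at 7870 CPM in pup 2 and 7182 in pup 1 and Mir10a at 5976 CPM in pup 2 and 5326 in pup 1. Both lay between Mir99a and Mir100 in level, and Mir10b counts were 2.95 times those of Mir100 in pup 2 and 2.99 times in pup 1.

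By closeness of mean CPM over the 2 libraries, each member had these neighbours. Mir21a followed Mir99a at 31210 ± 810.4 CPM. Mir30e and Mir411 stood directly above and below Mir99b, Mir487b and Mir15a around Mir100, and Mir541 and Mirlet7f-2 around Mir125a. Mir27a and Mir31 stood around Mir125b-2, and Mir674 and Mir199b around Mir125b-1. Several gaps were smaller than the SD over the pups. Mir487b was at 2538 ± 137 CPM beside Mir100 at 2535 ± 188 CPM, and Mir31 at 439.8 ± 18.9 CPM beside Mir125b-2 at 441 ± 37.1 CPM.

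The pups were then compared gene by gene, pup 2 over pup 1. Members of a cluster lay on the same side of 0, with the chromosome 16 and chromosome 9 members higher in pup 2 and the chromosome 17 members lower in pup 2. By a two-sided exact binomial test with Benjamini-Hochberg adjustment over 362 genes, all 6 members differed, 4 of them higher in pup 2 and 2 lower. This test sets the libraries against counting noise, not a condition, and it called 32.3% of the tested genes, 19.1% as higher and 13.3% as lower in pup 2. Of the 122 genes at least as abundant as Mir125b-1 it called 67.2%, so a call was common at this depth. None of the members was called by edgeR's exact test with the common dispersion of these libraries (adjusted p = 1 for each), which called 1.38% of genes; none had an unadjusted p under 0.05. With 1 library per pup, that dispersion is estimated from the same difference that is tested, so this result does not show that the members are alike in the pups.

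The largest ratio among members was that of Mir99a, with a log2 ratio of 0.28 (counting SE 0.0045), or 1.22-fold higher in pup 2, and its exact binomial p was too small to be represented. Mir125b-2, its cluster partner, had a log2 ratio of 0.20 (counting SE 0.044; adjusted p = 4.66e-05, exact binomial test). Mir100 had 0.18 (counting SE 0.018; adjusted p = 9.95e-21, exact binomial test). Mir125b-1 had 0.16 (counting SE 0.060; adjusted p = 0.0233, exact binomial test), and it was not called under 3 of the other scalings and filters with this test. These were DESeq2 size factors (adjusted p = 0.0848, exact binomial test), which called 34.5% of tested genes, total counts (adjusted p = 0.058), which called 34.0%, and no filter on low counts (adjusted p = 0.383), which called 17.7%. Mir99b had -0.08 (counting SE 0.011; adjusted p = 3.03e-10, exact binomial test) and Mir125a also -0.08 (counting SE 0.022; adjusted p = 0.00126, exact binomial test). The signs of all 6 were the same under each scaling tried. In size these differences are small: the median absolute log2 ratio was 0.17 over the members and 0.16 over all tested genes, and no member had a level 25% or more above that of the other pup, while 8.84% of the tested genes passed the test with at least that difference.

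Within a cluster the members' ratios lay close together, but closeness was not particular to cluster partners. Mir125b-2 of chromosome 16, at 0.196, lay nearer to Mir100 of chromosome 9, at 0.176, than to its partner Mir99a, at 0.281. Mir10a, outside the clusters, was at 0.190. The difference in log2 ratio was 0.0066 between Mir99b and Mir125a (95% counting interval -0.043 to 0.056) and 0.011 between Mir100 and Mir125b-1 (-0.11 to 0.13). It was 0.085 between Mir99a and Mir125b-2 (-0.00077 to 0.17). Each interval includes 0, which does not show that the ratios are equal. The let-7 genes of the larger clusters lay on the other side of 0. Mirlet7c-1 had a log2 ratio of -0.20 (counting SE 0.091) and Mirlet7a-2 one of -0.23 (counting SE 0.10), and both missed the threshold of the exact binomial test (adjusted p = 0.0708 each). The difference was 0.49 between Mir99a and Mirlet7c-1 (95% counting interval 0.31 to 0.66) and 0.41 between Mir100 and Mirlet7a-2 (0.20 to 0.61). The share of reads mapped to several places was also higher in pup 2, at 24.8% against 22.7% in pup 1. Its part in the ratios of the let-7 and Mir125b genes was not tested. The let-7e locus had a log2 ratio of -0.02 (counting SE 0.020).

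**Figure D4:**
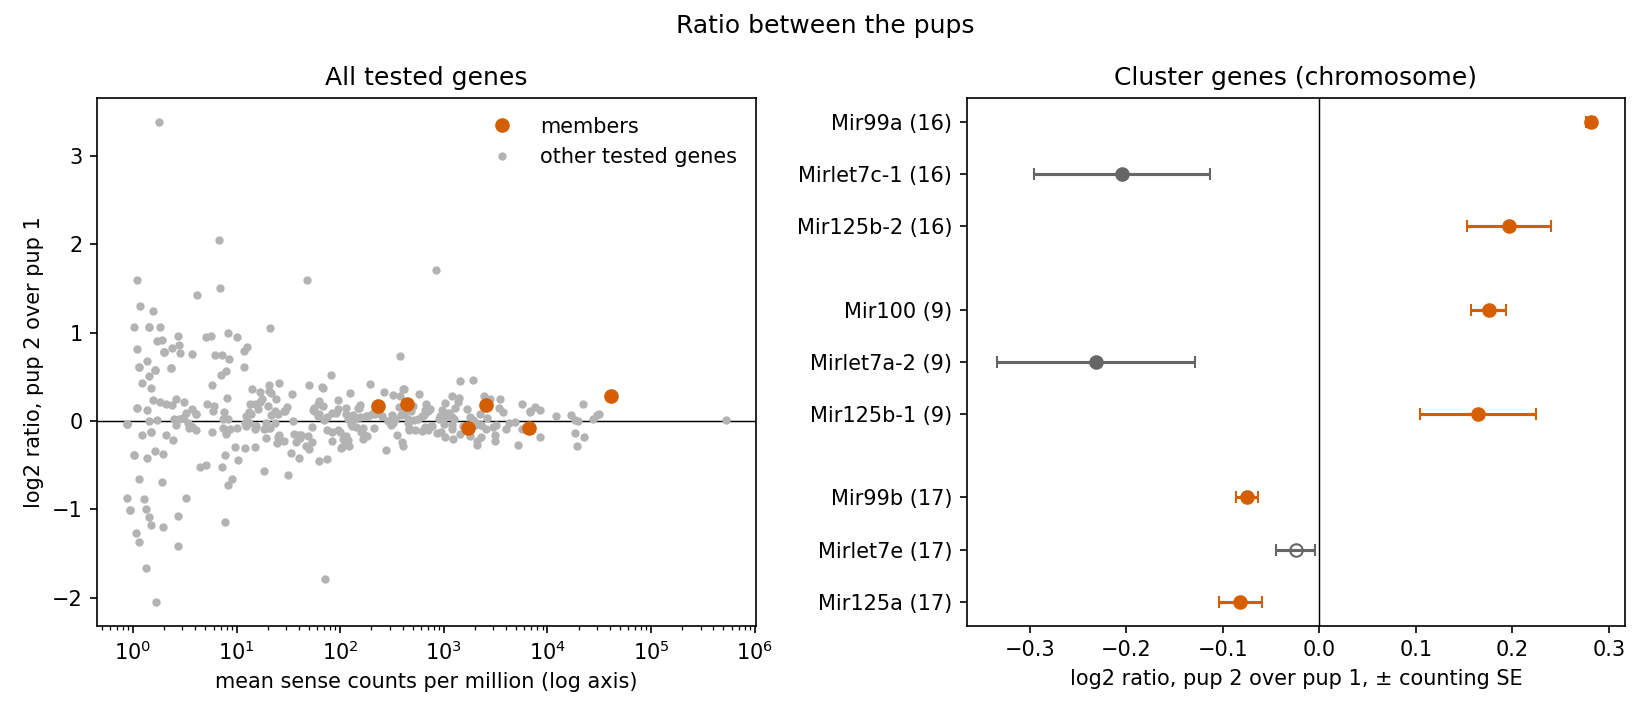
Left, log2 ratio of pup 2 over pup 1 against mean counts per 1000000 (log axis) for the members and the other tested genes; right, the ratio of each cluster gene with its counting SE, members in orange and let-7 genes in grey, Mirlet7e (open) from counts opposite Gm25927. Members on chromosomes 16 and 9 lie between 0.16 and 0.28, those on chromosome 17 at -0.08.

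Relatives outside the clusters differed between the pups as well. Mir351, with the Mir125 seed, was lower in pup 2 (log2 ratio -0.28, counting SE 0.013; adjusted p = 2.39e-100, exact binomial test). Mir10a and Mir10b were also higher in pup 2, at log2 ratios of 0.19 (counting SE 0.012) and 0.16 (counting SE 0.011). With 1 library per pup, differences between animals and differences in handling cannot be told apart.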

How the data were processed

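The authors deposited 1 table of whole-number counts per annotated miRNA gene for each library, raw and unpooled. The build was mm10 and the annotation M4, per the README deposited beside each table, and RNA was under 30 bases long, per the labels. The strand of each column was read from the values. The aligner is not given in the sources used here, nor is the counter. Lines 1 to 4, reads assigned to no gene, stayed out of totals and tests. Unmapped reads were 7.32% in pup 2 and 8.19% in pup 1, and reads mapped once but to no gene on the sense strand, opposite-strand gene counts included, 3.07% in pup 2 and 3.22% in pup 1. Sense-strand gene counts were 3636650 of 5609988 reads in pup 2 and 7460621 of 11323636 in pup 1. The labels name the pups as littermates. With 1 library per pup, the exact binomial p-values set the difference between these libraries against counting noise only.

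Symbols and positions were looked up in GENCODE M21, built on GRCm38 like mm10 (1894 of 1973 IDs matched), and sequences from RefSeq. The members and gene lists were chosen with earlier results of these data known. Genes named are the members, their cluster, seed and sequence relatives, the top gene and the gene directly above and below each member in mean CPM. The pups were compared with an exact conditional binomial test per gene (at least 10 counts summed, TMM library sizes from edgeR 4.0.16, prior count 0.5, threshold 0.05). It was tried on simulated counts with counting noise only, which does not cover spread between libraries beyond that noise. DESeq2 1.42.0 gave alternative size factors; Python 3.11.15, scipy 1.17.1 and R 4.3.3 were used. Sequence shared between members was computed from RefSeq mature entries.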

Additional observations from a re-analysis of the deposited data

Results flagged for a closer look

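Counts on the strand opposite Gm25927, at the position where GENCODE M21 places Mirlet7e, averaged 2089 CPM, at 2054 CPM in pup 2 and 2124 in pup 1. They are singled out because they lie in the opposite-strand column, outside the levels used for the members, and exceed the 0.825 CPM in pup 2 and 0.402 in pup 1 that a count of 0 allows. Mir99b and Mir125a, the neighbours on either side, had no opposite-strand count.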

How the results depend on the processing

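Of 53 alternative values that keep both pups, 37 moved by less than 1 SD over the pups or, for counts of genes and bases, by less than 1.5 times. Several of these could hardly move. The members had no opposite-strand count, so counting both strands left their ratios unchanged. The TMM factors were 1.01 in pup 1 and 0.992 in pup 2, so they barely shift a mean of the pups. The tally is therefore no measure of stability. With Mir143 left out of the total, the mean levels were 85640 CPM for Mir99a, 14006 for Mir99b, 5334 for Mir100, 3608 for Mir125a, 927 for Mir125b-2 and 489 for Mir125b-1, and 110004 for their sum. With all reads as the total they were 26585, 4350, 1656, 1121, 288 and 152 CPM in the same order, and 34152 for the sum. These changes follow from the size of the total. The count of members differing between the pups was 6 with the main settings, 0 when a difference of at least 25% was also required, 0 with edgeR's common dispersion and 5 or 6 otherwise. Mir125b-1 was the member lost with DESeq2 size factors, total counts and no filter on low counts. The order of the members by level per kilobase was chosen after seeing the data. A single pup cannot lie more than 1 SD from the mean of 2, so values of each pup alone are a range and no sign of stability: the sum was 48785 to 55784 CPM, Mir99a over Mir125b-2 was 89.5 to 94.9, and all 6 members were detected. The comparison between the pups has no value without either. Shared runs over annotated gene spans were not run; RefSeq hairpins, held for 4 members, gave 16 bases for Mir99a and Mir100 and 14 for Mir125a and Mir125b-1. No paired analysis was possible because there is only 1 group. Depth limits Mir125b-1 most, and unassigned reads limit both Mir125b genes and the let-7 genes.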
